A study of Mus musculus with 6 samples.

Results

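The neurotrophin genes and their receptors examined here were *Bdnf*, *Ntf3* and *Ntf5*, which encode secreted ligands, *Ngfr*, *Ntrk2*, *Ntrk3* and *Sort1*, which encode receptors, and *Negr1*, which encodes a neuronal adhesion molecule. They were chosen by symbol, and all 8 were found among the 55401 genes of the count files. RNA-seq had been done on subcutaneous white adipose tissue (scWAT) of 8-week-old male mice, 3 controls (YT-FF) and 3 knockouts (YT-AKO). According to the methods, the *Yap* and *Taz* alleles were floxed in all of them, without Cre recombinase in YT-FF, which the sample labels call wild type, and with Cre driven by the *Adipoq* promoter in YT-AKO. That promoter is active in mature adipocytes, so nerves, Schwann cells, vessels and progenitors of the same tissue kept both genes. In such bulk tissue, fewer cells of a type and less RNA per cell cannot be told apart.

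Neurotrophins are made as precursors, cleaved by proteases, and released by the tissues that nerves grow into. The mature ligands act on Trk receptor tyrosine kinases, TrkB (*Ntrk2*) for brain-derived neurotrophic factor and neurotrophin-4 and TrkC (*Ntrk3*) for neurotrophin-3, while the p75 receptor (*Ngfr*) binds every neurotrophin and, together with sortilin (*Sort1*), the uncleaved precursors. In adipose tissue, signals of this family are known for supporting the sympathetic fibres that drive lipolysis and thermogenesis. *Negr1* belongs to the IgLON adhesion molecules and is no neurotrophin receptor. The comparison asked whether the transcripts of ligands and receptors differed between YT-FF and YT-AKO fat, the study being concerned with how *Yap* and *Taz* affect the innervation of this tissue.

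Promoter windows of 300 bases, 250 before and 50 after a start site, were listed in RefSeq (GRCm38.p6) for 5 of the 8 genes, 12 windows in all. *Ntf5*, *Ntrk3* and *Sort1* had no listed window and were not searched. TEAD factors are among the partners through which YAP and TAZ act on genes, and not the only ones. The windows were searched on both strands for the TEAD letters GGAATG, whose reverse complement is CATTCC. They occurred in 2 of the 12 windows (16.7%), both of *Bdnf*, against 14.7% of 32851 mouse promoters. The 2 *Ntf3* windows are shown because *Ntf3* was the tested ligand with the larger difference between groups, and the 2 *Bdnf* windows because they hold the motif, which is in capitals. A match is a run of letters and not a measured site.
*Ntf3* window 1, chr6:126164911-126165210 (- strand): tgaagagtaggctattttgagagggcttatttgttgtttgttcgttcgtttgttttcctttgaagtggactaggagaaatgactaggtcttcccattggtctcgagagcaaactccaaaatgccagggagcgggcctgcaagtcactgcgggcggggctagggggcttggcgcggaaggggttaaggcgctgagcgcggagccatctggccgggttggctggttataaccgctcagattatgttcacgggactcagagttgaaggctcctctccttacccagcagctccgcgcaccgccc
*Ntf3* window 2, chr6:126166695-126166994 (- strand): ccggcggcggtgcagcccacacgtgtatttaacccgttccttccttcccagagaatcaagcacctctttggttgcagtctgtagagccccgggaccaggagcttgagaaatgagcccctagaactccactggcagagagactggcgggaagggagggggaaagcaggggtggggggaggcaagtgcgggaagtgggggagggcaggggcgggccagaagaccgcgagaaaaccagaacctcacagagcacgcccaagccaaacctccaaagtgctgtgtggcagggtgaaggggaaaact
*Bdnf* window 2, chr2:109676782-109677081 (+ strand): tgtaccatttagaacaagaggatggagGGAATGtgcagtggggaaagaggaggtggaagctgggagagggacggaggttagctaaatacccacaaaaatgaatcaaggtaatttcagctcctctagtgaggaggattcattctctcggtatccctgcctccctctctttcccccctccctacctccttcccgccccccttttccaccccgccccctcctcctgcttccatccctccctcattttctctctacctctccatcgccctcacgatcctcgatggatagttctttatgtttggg
*Bdnf* window 7, chr2:109722671-109722970 (+ strand): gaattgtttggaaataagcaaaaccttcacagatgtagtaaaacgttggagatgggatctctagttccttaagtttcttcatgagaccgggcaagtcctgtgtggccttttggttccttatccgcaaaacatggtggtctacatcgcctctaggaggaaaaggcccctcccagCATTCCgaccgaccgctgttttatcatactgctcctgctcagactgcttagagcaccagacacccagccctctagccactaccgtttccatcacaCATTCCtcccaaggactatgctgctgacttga
The motif began at position -223 from the start site in *Bdnf* window 2, and at positions -77 and 18 in *Bdnf* window 7. Neither *Ntf3* window held it. The C/EBP letters TTGCNNAA or TTNNGCAA, searched because C/EBP factors act in adipocytes, were found in 0 of the 12 windows and in 10.8% of all promoters.

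The libraries held 17740987 to 21838493 counted fragments. The counts of the targeted genes moved in opposite directions. *Yap1* fell in the libraries labelled YT-AKO, from 1622, 1300 and 1295 counts in YT-FF to 649, 492 and 529 (log2 fold change -0.98, SE 0.167, adjusted p = 0.0179, edgeR with Benjamini-Hochberg adjustment), while *Wwtr1*, which encodes TAZ, rose from 1818, 1729 and 1918 to 3015, 2253 and 2716 counts (0.89, SE 0.182, adjusted p = 0.022). These counts cover all exons of a gene, those outside the floxed part included, and measure no protein, so they do not check the deletion itself. The group is named by its label below. The library labelled YT-AKO 2 stood apart from the others, with 26.2% of its counts on genes under 2 kb of exon against 11% to 16% elsewhere and 20501 genes detected against 22810 to 24576. YT-AKO 1 held the most skeletal muscle transcripts, 3140 summed CPM (counts scaled to a common library size, with TMM factors) over 8 muscle markers against 119 to 450 in the other 5 libraries.

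Of the 8 genes, 7 had enough counts to be tested, and 1 of these, *Ntrk3*, passed an adjusted p of 0.05 with edgeR, in the lower direction. Among all 16807 genes tested, 21.6% passed, of which 12.6% in the higher and 9.01% in the lower direction as shares of all, so the share of the family was near that of all genes. *Ntf3* and *Ntrk3* were the 2 genes whose CPM values did not overlap between the groups, a pattern that 51.5% of all tested genes showed, 25.7% higher as *Ntf3* and 25.8% lower as *Ntrk3*. Under the stricter rule, with a log2 fold change beyond 1 and an adjusted p below 0.01, no gene of the family and 0.125% of all genes passed with edgeR. With DESeq2 *Ntrk3* met this rule (log2 fold change -1.22, adjusted p = 0.00543). So did 1339 genes in the higher and 675 in the lower direction, of 18938 tested. *Ntrk3* also met it with edgeR without the filter (-1.21, adjusted p = 0.00748), where 1217 and 507 of 30027 genes did. The plot of CPM by library shows the values of each gene.

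**Figure D1:**
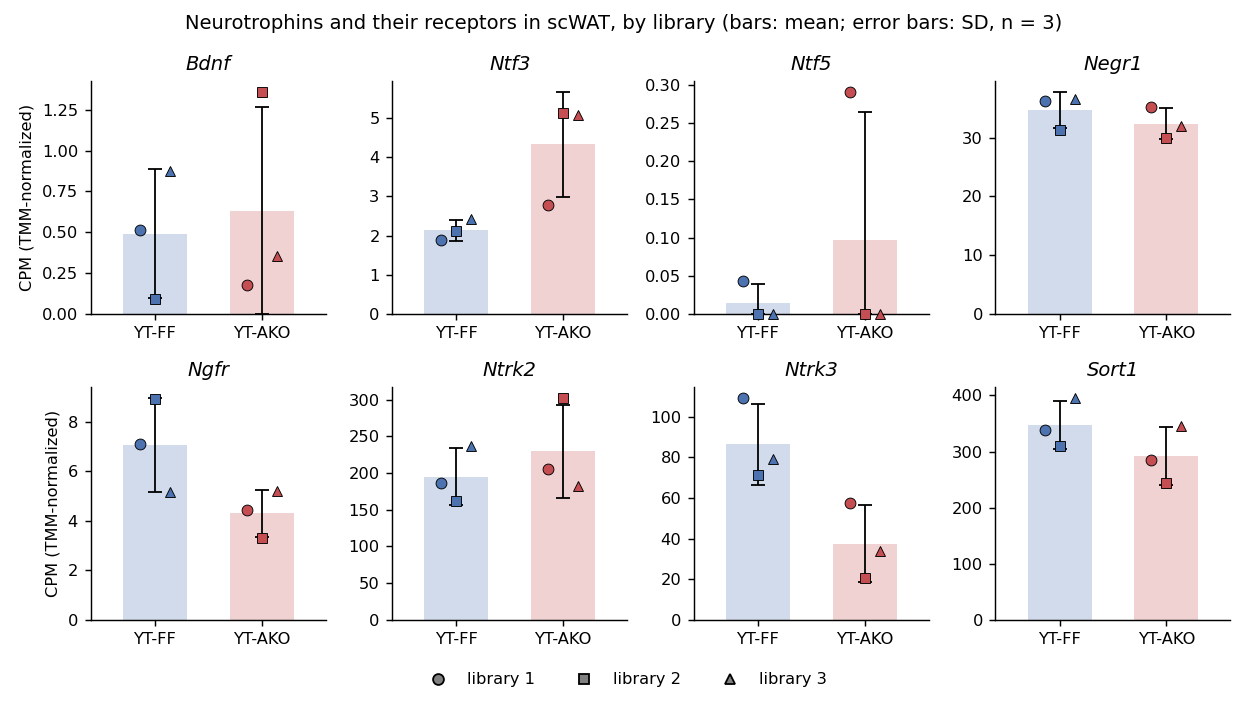
CPM (vertical axis, from 0, its own scale in each panel) of the 8 genes in the 3 YT-FF libraries and the 3 libraries labelled YT-AKO. Bars are means, error bars the SD (not drawn below 0), and each symbol is 1 library. The groups separate for *Ntf3* (1.88 to 2.42 against 2.79 to 5.13) and *Ntrk3* (71.1 to 109 against 20.6 to 57.7), and *Bdnf* scatters within both groups.

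*Ntf3* encodes neurotrophin-3, the ligand of TrkC (ENSMUSG00000049107, mm10 chr6:126101412-126166910, minus strand). Its counts were 44, 48 and 47 for YT-FF 1, 2 and 3, and 48, 87 and 86 for the libraries labelled YT-AKO 1, 2 and 3. Scaled to CPM, these were 1.88, 2.11 and 2.42 against 2.79, 5.13 and 5.08, so no YT-FF library reached the lowest of those labelled YT-AKO, with YT-AKO 1 close to the controls. The mean was 2.13 ± 0.273 CPM in YT-FF and 4.33 ± 1.34 in YT-AKO (SD, n = 3), 2.03-fold higher (log2 fold change 1.02, SE 0.339). This did not pass the threshold with edgeR (adjusted p = 0.0638, Benjamini-Hochberg), and 12.1% of all tested genes had a larger positive log2 fold change. DESeq2, which called 26.8% of the genes it tested, gave the same log2 fold change with an adjusted p of 0.0458, and without YT-AKO 1 edgeR gave 1.27 with an adjusted p of 0.035. Per exon length, as TPM (the same share of the library divided by exon length and rescaled), the groups overlapped, at 4.21, 4.86 and 5.09 against 4.54, 5.25 and 8.06.

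*Bdnf* encodes brain-derived neurotrophic factor, a TrkB ligand (ENSMUSG00000048482, chr2:109674700-109727007, plus strand). It was at the edge of detection, with 12, 2 and 17 counts in YT-FF and 3, 23 and 6 in the libraries labelled YT-AKO. One library of each group lay at or under the 3 counts taken as the floor of detection, and the highest value of all was in YT-AKO 2. The mean CPM was 0.492 ± 0.394 in YT-FF and 0.628 ± 0.637 in YT-AKO (SD, n = 3), and the log2 fold change of 0.37 was smaller than its SE of 0.939 (adjusted p = 0.79 by edgeR). Without YT-AKO 2 the log2 fold change was -0.86, and without YT-FF 2 it was -0.14. Of the exon bases of *Bdnf*, 14.4% are shared with the gene *Gm45346* on the opposite strand, where counting without regard to strand loses fragments.

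*Ntf5* encodes neurotrophin-4, the other TrkB ligand (ENSMUSG00000074121, chr7:45413695-45417179, plus strand). YT-FF held 1, 0 and 0 counts and the libraries labelled YT-AKO held 5, 0 and 0, too few to be tested across genes. A count of 0 allows up to 3 counts, the floor of detection, which is 0.128 to 0.177 CPM over the 6 libraries. Only YT-AKO 1, with its 5 counts, lay above that floor, and the transcripts were not detectable at this depth in the other libraries. The CPM values did not separate the groups (exact permutation test, two-sided p = 1), and a difference could not have passed, since 3 libraries against 3 allow no p under 0.1.

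Proneurotrophins are cut by furin, by proprotein convertases, by plasmin and by matrix metalloproteinases. In a list of 10 such proteases and their regulators, 8 were tested, 1 rose and none fell, with a median log2 fold change of -0.09 against -0.02 over all tested genes. Among all tested genes 12.6% rose and 9.01% fell, and the calls of this and the later lists are read beside these shares. The one that rose was *Mmp3*, a secreted metalloproteinase that also cuts many matrix proteins. It measured 24.2, 21.6 and 17.3 CPM in YT-FF and 69.3, 58.7 and 47.2 in the libraries labelled YT-AKO, with a wide gap between the groups (log2 fold change 1.47, SE 0.206, adjusted p = 0.0166 by edgeR, and 1.13 with adjusted p = 0.023 after a correction for gene length). *Furin* measured 85.9 ± 5.94 and 83.3 ± 30.0 CPM (SD, n = 3), with the lowest value in YT-AKO 2.

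*Ngfr* encodes the p75 receptor, which all neurotrophins share and which denervated Schwann cells and some fibroblasts also carry (ENSMUSG00000000120, chr11:95568818-95587735, minus strand). Its counts were 167, 203 and 100 for YT-FF against 76, 56 and 88 for the libraries labelled YT-AKO. In CPM these were 7.12, 8.92 and 5.15 against 4.42, 3.30 and 5.20, so the groups overlapped by the narrowest margin, between YT-FF 3 and YT-AKO 3. The means were 7.06 ± 1.89 and 4.31 ± 0.954 (SD, n = 3), a ratio of 0.61 (log2 fold change -0.71, SE 0.3). The unadjusted p was 0.0455 and the adjusted p 0.115 with edgeR, short of the threshold. Of all tested genes, 17.1% had a lower log2 fold change. The value of *Ngfr* ran from -1.03 to -0.52 over 17 other analyses, negative in each and past the threshold in none.

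Markers of Schwann cells, which ensheathe nerve fibres and can express *Ngfr*, were measured beside it. None of the 10 tested genes of a list of 11 passed, and their median log2 fold change was -0.38. Their summed level was 181, 184 and 153 CPM in YT-FF and 158, 166 and 134 in the libraries labelled YT-AKO, which overlap. *Mbp*, a structural protein of myelin, measured 110 ± 10.5 and 98.4 ± 9.24 CPM, *Prx*, periaxin of myelinating Schwann cells, 22 ± 3.28 and 22.5 ± 9.94, and *Cdh19*, a cadherin of Schwann cells, 11.5 ± 2.69 and 7.05 ± 2.64 (SD, n = 3). Markers of lymph node, whose follicular cells can also carry p75, were followed as well. In a list of 8, with a median log2 fold change of -0.22, *Ms4a1* and *Cr2* fell and none rose. *Cd79a* measured 204 ± 9.71 and 185 ± 48.3 CPM and *Lck* 113 ± 24.8 and 111 ± 31.4 (SD, n = 3). *Cd3d* and *Ccl19* had positive log2 fold changes, 1.20 and 3.52, neither called, and -0.04 and -0.03 without YT-AKO 2. The summed levels of the list were 849, 869 and 735 CPM in YT-FF and 592, 860 and 511 in YT-AKO. YT-AKO 1 and 3 lay below every YT-FF library and YT-AKO 2 did not, and without YT-AKO 2 *Cd79a* passed as well (log2 fold change -0.38, adjusted p = 0.0399 by edgeR). *Cr2*, a complement receptor of B cells and follicular dendritic cells, went from 121 ± 8.40 to 56.0 ± 3.97 CPM (log2 fold change -1.11, adjusted p = 0.0166 by edgeR). The part of either cell type in the *Ngfr* values was not tested.

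The p75 receptor acts through partner and effector proteins. Their list of 15 genes was tested whole, and none passed in either direction (smallest adjusted p 0.0818 by edgeR), with a median log2 fold change of -0.05. The most abundant was *Arhgdia*, which encodes an intracellular regulator that p75 binds, at 358 ± 5.25 CPM in YT-FF and 449 ± 36.2 in YT-AKO (SD, n = 3, log2 fold change 0.33, adjusted p = 0.162).

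*Sort1* encodes sortilin, the sorting receptor that pairs with p75 and that adipocytes also use in the vesicles carrying their insulin-responsive glucose transporter (ENSMUSG00000068747, chr3:108284082-108361511, plus strand). It measured 338, 310 and 395 CPM in YT-FF and 285, 244 and 346 in the libraries labelled YT-AKO. YT-AKO 3 lay above YT-FF 1 and 2, so the groups overlapped, and the means of 348 ± 43.6 and 292 ± 51.7 (SD, n = 3) did not differ past the threshold (log2 fold change -0.25, SE 0.196, adjusted p = 0.356 by edgeR). Of its exon bases, 4.47% are shared with the antisense gene *Gm12523*.

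Of 4 relatives of sortilin in the VPS10 family, sorting receptors of neurons and other cells, 3 were tested, 1 fell and none rose. The share of all tested genes that fell was 9.01%. *Sorl1*, which directs cargo between Golgi and endosomes, fell from 180, 184 and 201 CPM in YT-FF to 113, 69.6 and 75.2 in the libraries labelled YT-AKO. No library of one group reached the other (log2 fold change -1.13, SE 0.214, adjusted p = 0.0201 by edgeR), and with the correction for gene length the value was -0.67 with an adjusted p of 0.0468.

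*Ntrk2* encodes TrkB (ENSMUSG00000055254, chr13:58806569-59133970, plus strand). It measured 187, 162 and 237 CPM in YT-FF and 205, 302 and 183 in the libraries labelled YT-AKO. The groups overlapped, and YT-AKO 2 held the highest value. The means were 195 ± 38.0 and 230 ± 63.6 CPM (SD, n = 3, log2 fold change 0.24, SE 0.242, adjusted p = 0.487 by edgeR), and without YT-AKO 2 the log2 fold change was -0.01.

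*Ntrk3* encodes TrkC, the receptor of neurotrophin-3 (ENSMUSG00000059146, chr7:78175959-78738012, minus strand). Counts of 2561, 1619 and 1538 in the controls stood against 993, 350 and 577 in the libraries labelled YT-AKO, or 109, 71.1 and 79.2 against 57.7, 20.6 and 34.1 CPM. All 3 libraries labelled YT-AKO lay below all YT-FF libraries, YT-AKO 2 the lowest. The mean fell from 86.5 ± 20.0 to 37.5 ± 18.8 CPM (SD, n = 3), 2.31-fold lower (log2 fold change -1.21, SE 0.361, adjusted p = 0.0494 by edgeR with Benjamini-Hochberg adjustment), and 6.08% of all tested genes had a lower log2 fold change. With YT-AKO 2 left out the value was -0.92 with an adjusted p of 0.0296. The call was lost without YT-FF 1, 2 or 3 (adjusted p = 0.17, 0.128 and 0.102) and without YT-AKO 3 (0.102), although without YT-FF 1 no gene of the whole table passed and without YT-FF 2 only 2 did.

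Gene length moved with the difference between the groups, and *Ntrk3* and *Ntrk2* have the longest summed exons of the family, 30170 and 19292 bases. Across all tested genes the median log2 fold change went from 0.60 for 1 to 2 kb of exon to -0.67 over 16 kb, where 43.1% of 306 genes passed in the lower direction and 0.654% in the higher. The rank correlation of log2 fold change with length across genes, which are not independent replicates, was -0.376, and -0.283 without YT-AKO 2. With a length correction in each library, *Ntrk3* was at -0.55 (adjusted p = 0.163) and *Ntrk2* at 0.92 (adjusted p = 0.095), while *Ntf3*, the shortest tested gene of the family at 1714 bases, was at 0.66 (adjusted p = 0.186). *Ngfr*, with 3446 bases, stayed at -0.75. The part of length in the fall of *Ntrk3* was not tested further.

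**Figure D2:**
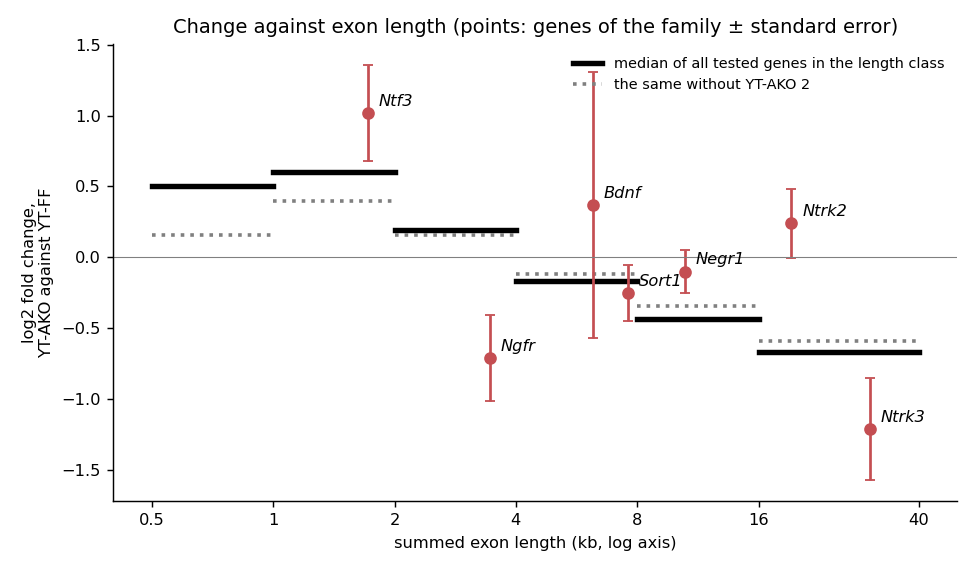
Log2 fold change of the 7 tested genes (points, error bars the standard error) against summed exon length in kb on a log axis, with the median of all tested genes in each length class as bars, with all libraries and without YT-AKO 2. The medians step from 0.60 at 1 to 2 kb to -0.67 over 16 kb, *Ntrk3* lies below the bar of its class and *Ntrk2* above it.

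TrkB and TrkC transcripts were also set side by side as a ratio of TPM values, which was 2.68, 3.57 and 4.68 in YT-FF and 5.56, 22.9 and 8.38 in the libraries labelled YT-AKO. Every YT-AKO ratio was above every YT-FF ratio, YT-AKO 2 far above the rest, and the exact permutation test gave 0.1, the smallest p that 3 against 3 allows. The difference between their log2 fold changes, *Ntrk2* minus *Ntrk3*, was 1.44, and over 17 other analyses it ran from 0.83 to 1.98. It was 1.47 with the length correction and 0.90 without YT-AKO 2. This pair was chosen after the values were seen, *Ntrk3* alone already separated the groups, and *Ntrk2* was not called, so the ratio is given as a description. The ratio of the ligand *Ntf3* to its receptor *Ntrk3*, likewise chosen, was 0.302, 0.522 and 0.538 in YT-FF and 0.851, 4.38 and 2.62 in YT-AKO (exact permutation p = 0.1), so that *Ntf3* was the less abundant of the pair in all YT-FF libraries and the more abundant in 2 of the 3 labelled YT-AKO. These genes lie at opposite ends of the length range, and with the length correction their log2 fold changes of 1.02 and -1.21 became 0.66 and -0.55.

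**Figure D3:**
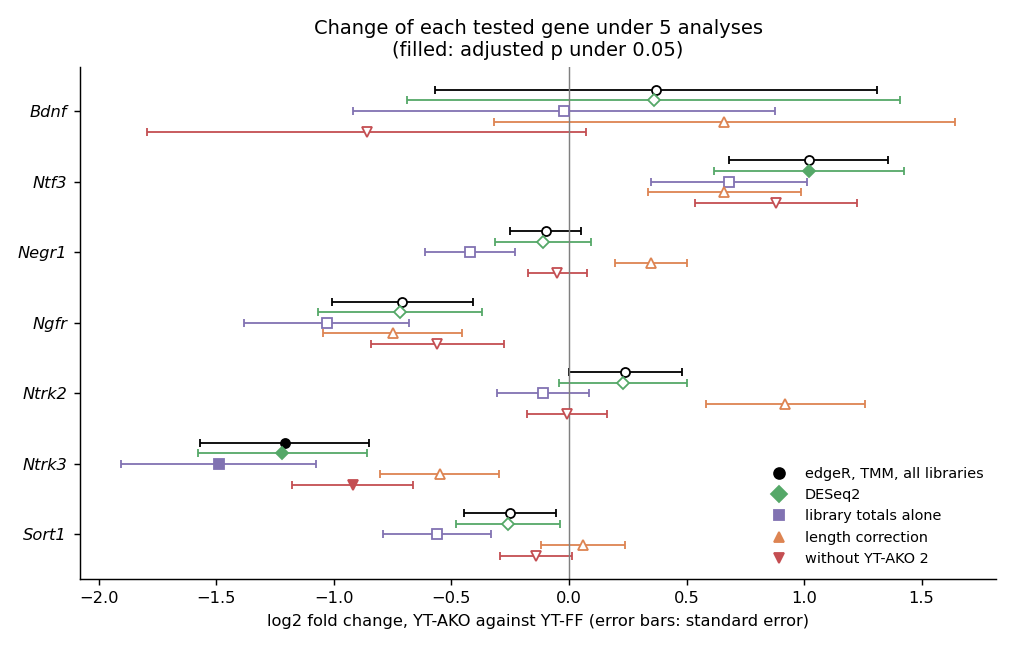
Log2 fold change of the libraries labelled YT-AKO against YT-FF (horizontal axis, error bars the standard error) for the 7 tested genes under edgeR with TMM, DESeq2, library totals alone, a length correction, and edgeR without YT-AKO 2. Filled symbols passed an adjusted p of 0.05. *Ntrk3* passed in 4 of the 5 and lay at -0.55 with the length correction, and *Ntf3* passed with DESeq2.

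Downstream of the Trk receptors, 22 of 23 adaptors and kinases were tested, of which 3 fell and none rose, with a median log2 fold change of -0.16. Over all tested genes 9.01% fell and 12.6% rose. *Pik3r1*, the regulatory subunit of phosphoinositide 3-kinase and a component of insulin signalling too, fell from 532, 361 and 406 CPM in YT-FF to 207, 187 and 257 in the libraries labelled YT-AKO (log2 fold change -1, SE 0.216, adjusted p = 0.0244 by edgeR). *Kidins220*, a scaffold that Trk receptors phosphorylate, fell from 103 ± 2.29 to 66.7 ± 8.60 CPM, and *Frs2*, the adaptor that links Trk and fibroblast growth factor receptors to the MAP kinase pathway, from 43.2 ± 2.71 to 30.0 ± 3.01 (SD, n = 3). With the length correction none of the 3 passed, at -0.56, -0.25 and -0.14 in the same order.

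*Negr1*, the IgLON adhesion molecule that shapes neurite outgrowth (ENSMUSG00000040037, chr3:156561794-157316445, plus strand), was the steadiest gene of the family in CPM. It measured 36.3, 31.2 and 36.6 in YT-FF and 35.2, 30.0 and 31.9 in the libraries labelled YT-AKO, with overlapping groups and means of 34.7 ± 3.02 and 32.3 ± 2.61 (SD, n = 3). The log2 fold change was -0.10 (SE 0.151, adjusted p = 0.636 by edgeR) and 0.35 (adjusted p = 0.144) with the length correction. Of its 4 IgLON relatives 3 were tested and none passed. *Opcml*, the most abundant of them, measured 5.47 ± 1.77 and 3.54 ± 1.43 CPM (SD, n = 3).

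Per exon length, the order of the family in YT-FF fat ran from *Sort1* through *Ntrk2*, *Negr1*, *Ntrk3*, *Ngfr*, *Ntf3* and *Bdnf* to *Ntf5*. *Sort1* stood at 174 ± 13.5 TPM, 4.55 times *Ntrk2* at 38.2 ± 5.60 (SD, n = 3). *Negr1* at 12.5 ± 0.773, *Ntrk3* at 10.9 ± 2.61 and *Ngfr* at 7.85 ± 2.42 each overlapped the next in range, whereas *Ngfr* and *Ntf3*, at 4.72 ± 0.46, did not. The 4 receptors were thus above the ligands, and *Bdnf* at 0.293 ± 0.227 and *Ntf5* at 0.0206 ± 0.0356 lay below the rest. *Ntrk2* and *Ntrk3* have several transcripts of very different length, so the length of the longest protein-coding transcript was also used in place of all exon bases. *Ntrk2* then came to 84.4 TPM, *Negr1* to 26.4 and *Ntrk3* to 16.7, in an unchanged order of these 3. Those transcript lengths came from an earlier GENCODE release than the counts and were applied to YT-FF alone.

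In the libraries labelled YT-AKO, *Sort1* (95.2 ± 35.0 TPM), *Ntrk2* (27.6 ± 1.95) and *Negr1* (7.53 ± 2.25) led again. *Ntf3* came next at 5.95 ± 1.86, above *Ntrk3* at 3.20 ± 2.07 and *Ngfr* at 3.12 ± 1.27 (SD, n = 3), although each of these overlapped its neighbour. The TPM values of *Negr1*, *Ngfr*, *Ntrk2*, *Ntrk3* and *Sort1* were lower in all 3 libraries labelled YT-AKO than in any YT-FF library. That pattern held for 54.5% of all tested genes, and the median log2 ratio of mean TPM over all of them was -0.66, so it is not particular to these genes.

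**Figure D4:**
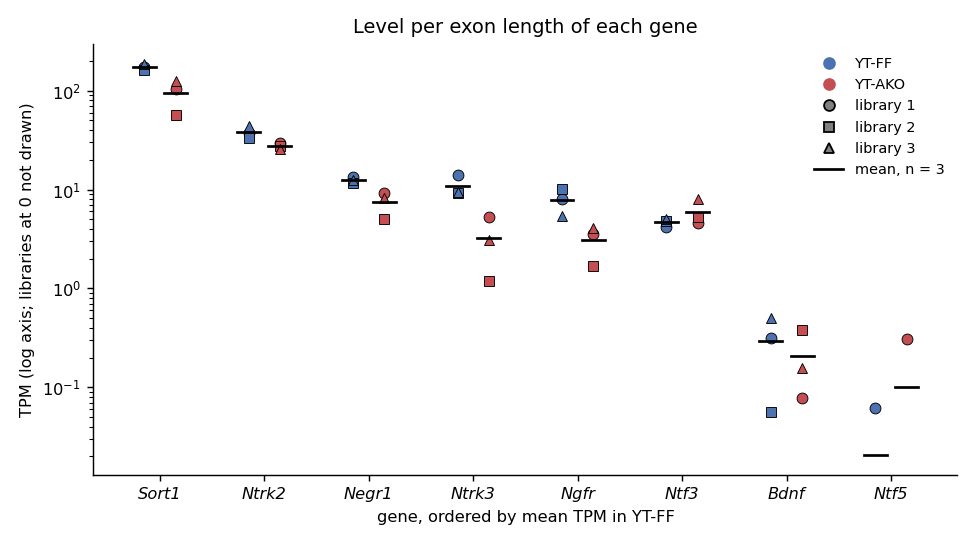
TPM from summed exon length (vertical log axis) for each gene, ordered by the YT-FF mean, in YT-FF (blue) and the libraries labelled YT-AKO (red). Symbols are libraries and lines the means of 3, and libraries at 0, all of *Ntf5*, are not drawn. Receptors lie above ligands in YT-FF, and *Ntf3* lies among the receptors in YT-AKO.

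Other factors known to support neurons were counted from lists as well. Of 9 genes of the GDNF family and its receptors 6 were tested and 1 rose, with a median log2 fold change of 0.45. The share of all tested genes that rose was 12.6%. The GDNF family gene that rose was *Nrtn*, which encodes neurturin, a survival factor for sympathetic neurons. *Nrtn* measured 2.00, 1.45 and 2.32 CPM in YT-FF and 7.73, 21.9 and 5.61 in the libraries labelled YT-AKO. The groups lay apart, with YT-AKO 2 the highest (log2 fold change 2.61, SE 0.537, adjusted p = 0.0224 by edgeR). The value was 1.79 (adjusted p = 0.0051) without YT-AKO 2 and 2.11 (adjusted p = 0.0288) with the length correction. Its preferred receptor *Gfra2* measured 29.6 ± 2.30 and 30.9 ± 2.94 CPM (SD, n = 3, adjusted p = 0.791).

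Of 18 further factors and receptors 15 were tested, 2 rose and 3 fell, with a median log2 fold change of 0. Over all tested genes 12.6% rose and 9.01% fell. *Nenf*, a secreted heme-binding protein named for its neurotrophic activity, rose from 31.2, 29.5 and 39.8 CPM to 66.0, 239 and 77.1 (log2 fold change 1.93, adjusted p = 0.0321 by edgeR, and 1.10 with adjusted p = 0.00284 without YT-AKO 2). *Manf*, an endoplasmic reticulum stress protein with survival activity for neurons, rose from 44.0 ± 3.19 to 104 ± 36.6 CPM. *Clcf1*, a cytokine of the ciliary neurotrophic factor receptor, fell from 62.4, 52.6 and 42.6 to 26.6, 22.6 and 26.6 CPM, with no overlap (log2 fold change -1.06, adjusted p = 0.0183). *Il6st*, the gp130 signalling chain that this receptor shares with interleukin-6, fell from 319 ± 36.8 to 195 ± 32 CPM (SD, n = 3). *Nenf*, *Manf* and *Clcf1* passed with the length correction too, and *Il6st* did not (-0.25, adjusted p = 0.252).

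**Figure D5:**
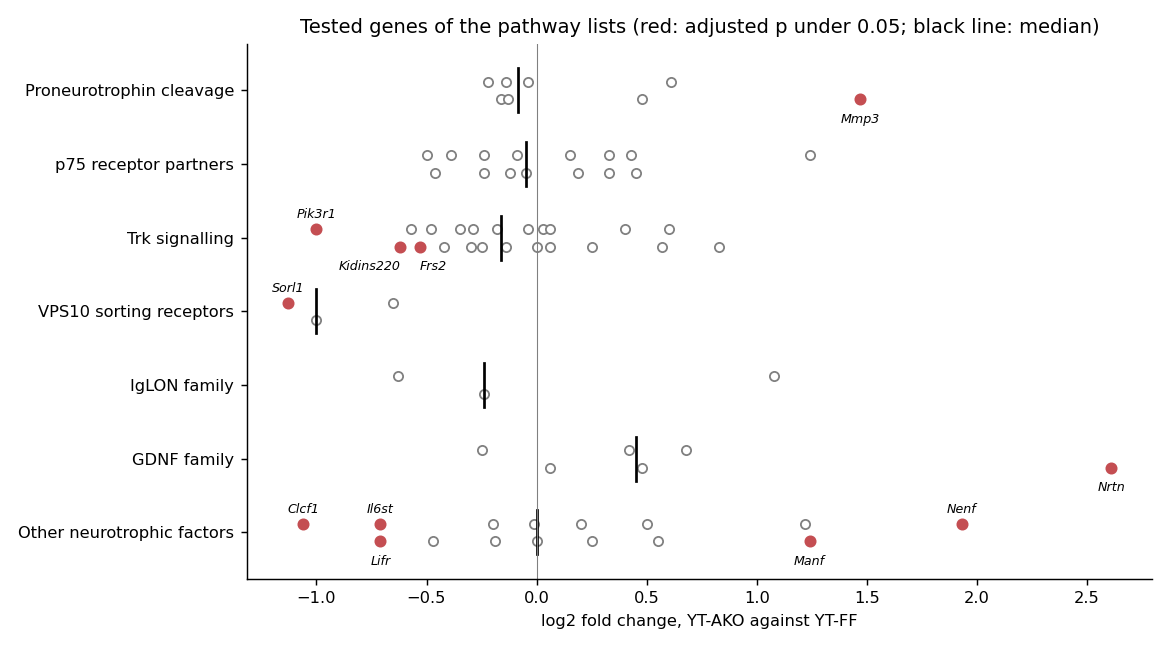
Log2 fold change (horizontal axis) of the tested genes of 7 lists around the neurotrophin pathway, 1 point per gene, with the list's median as a black line and genes that passed an adjusted p of 0.05 in red and named. The red points on the right are *Mmp3*, *Nrtn*, *Nenf* and *Manf*, and the medians lie between -1 (3 VPS10 genes) and 0.45 (GDNF family).

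Sympathetic neuron genes were low in every library. Of 17 markers 7 were tested, 1 rose and none fell. The one that rose was *Uchl1*, a deubiquitinase abundant in neurons, from 4.11 ± 0.618 to 7.60 ± 1.49 CPM (log2 fold change 0.88, adjusted p = 0.0455 by edgeR). It did not pass with the length correction or without YT-AKO 2 (0.71, adjusted p = 0.0522). *Syt1*, at a mean of 0.84 CPM, was at -1.19 (adjusted p = 0.162) and at -1.84 (adjusted p = 0.0407) without YT-AKO 2. *Th* and *Dbh*, which encode the enzymes of noradrenaline synthesis, had 0 counts in all 6 libraries, so the list gave no measure of those fibres, whose cell bodies lie in ganglia outside the fat. *Stmn2*, a growth-cone protein, measured 5.66 ± 0.122 and 6.27 ± 1.96 CPM, and *Slc18a2*, the vesicular monoamine transporter, 2.83 ± 0.607 and 2.94 ± 0.786 (SD, n = 3). The summed level was 15.2 to 20.4 CPM in YT-FF and 17.7 to 27.8 in the libraries labelled YT-AKO.

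Other cells of the tissue were followed by their markers beside *Ntf3* and *Ntrk3*. Calls among the markers stand beside 12.6% risen and 9.01% fallen among all tested genes. Adipocyte markers summed to 16200 to 23800 CPM in YT-FF and 24300 to 39800 in YT-AKO, led by *Fabp4*, *Lpl* and *Adipoq*, with 2 of 9 risen. Markers of progenitors and fibroblasts summed to 10100 to 11800 and 18300 to 24900 CPM, led by *Gsn*, *Col3a1* and *Col1a1*, with 4 of 11 risen and 1 fallen. Both sums lay apart between the groups. The median log2 fold changes of these 2 lists were 0.4 and 0.48, against -0.02 over all tested genes. In sums added after the data were seen, adipocyte markers without *Fabp4* were at 11900 to 16600 and 15200 to 19500 CPM, and without *Gsn* those of progenitors and fibroblasts were 4050 to 5070 and 4830 to 7540, so that the groups overlapped. Mural cells, which surround vessels, summed to 662 to 716 and 666 to 761 CPM (*Rgs5*, *Cspg4* and *Des* the most abundant, *Des* risen), and endothelial cells to 712 to 767 and 654 to 985 (*Pecam1*, *Cldn5* and *Cdh5* the most abundant, *Kdr* fallen). *Des* measured 166, 149 and 70.4 CPM in YT-AKO 1, 2 and 3, the same order as *Acta1* of the muscle list (1110, 312 and 198). The part of muscle in the rise of *Des* was not tested. Macrophage markers, led by *Lyz2*, *Csf1r* and *Mrc1*, summed to 1050 to 1230 and 1390 to 1690 CPM, apart with *Lyz2* and overlapping without it (347 to 406 and 351 to 455), with none of 6 past the threshold, and epithelial markers, led by *Epcam*, *Cdh1* and *Krt18*, to 3.66 to 5.10 and 3.84 to 4.88 with *Krt5* at 0. In skeletal muscle, led by *Acta1*, *Myh4* and *Tnnt3*, 1 of 7 tested genes rose, and YT-AKO 1, the highest in this list, had the lowest *Ntf3* of its group. The part of these cells in the values of *Ntf3* and *Ntrk3* was not tested.

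The genes whose log2 CPM followed each member most closely over the 6 libraries were listed by Pearson's r, as a description of 6 points that share depth and the length pattern. For *Ntf3* they were *Anapc2* (0.9921), *Tmem53* (0.9915) and *Ces1f* (0.988), and for *Ntrk3* *Eogt* (0.9959), *Traj1* (0.9943) and *Gpr141b* (0.9941). *Ngfr* was followed by *Soga1* (0.9907), *Heatr1* (0.9897) and *Nfatc2* (0.9893), and *Ntrk2* by *Cstf2t* (0.9927), *Sult1a1* (0.9879) and *Mcm7* (0.9873). *Sort1* was followed by *Zfp282* (0.9872), *Rap1gap2* (0.9821) and *Tnk1* (0.9804), and *Negr1* by *Kctd14* (0.9881), *Nexn* (0.9712) and *Rims4* (0.9699). Such values were common over 6 points. An r over 0.95 was reached by 449 genes for *Ntrk3*, 203 for *Ntf3* and 142 for *Ngfr*. For *Sort1*, *Ntrk2* and *Negr1* these were 39, 33 and 10 genes. No gene of the family stood among the 3 nearest of another, which among so many tested genes says nothing about the family.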

How the data were processed

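RNA-seq libraries of scWAT, 3 of YT-FF and 3 of YT-AKO, were compared, grouped by the genotype in the labels. Per the labels and the study's methods, the authors aligned paired-end reads by HISAT2 (mm10), then counted fragments with featureCounts 2.0.1 on GENCODE M25 exons. The deposited values are raw counts per gene, unstranded, with no filter. Symbols matched 55141 of 55401 gene IDs.

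Counts were analysed in R 4.3.3 with edgeR 4.0.16 (TMM, filterByExpr with a minimum count of 10 and total of 15, quasi-likelihood test, Benjamini-Hochberg adjustment over 16807 genes). The biological coefficient of variation was 0.288. TPM used the summed exon length. For length corrections, a spline of log length (6 degrees of freedom) was fitted in each library. DESeq2 1.42.0 and limma-voom (limma 3.58.1) were alternatives, with those named in the closing section. Single values were tested with exact permutation tests (smallest two-sided p 0.1 with 3 against 3).

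The genes, lists and tests were chosen with earlier results of these data known. The genes named are the 8 members, *Yap1* and *Wwtr1*, the called genes of each pathway list (if over 4, the 2 largest rises and 2 largest falls, and if none, the most abundant), the 3 most abundant markers per list, and the 3 nearest patterns per member of at least 1 CPM. *Furin*, *Gfra2*, the lymph node genes, *Des*, *Kdr*, *Th*, *Dbh*, *Syt1* and *Krt5* were named after their values were seen. Some marker genes are not reported here and were left out of the lists. Nothing says that the libraries of a group came from separate cages or litters, and p-values measure the spread between these libraries. Fragments carry no molecular identifiers, so the floor of 3 counts covers counting error only.

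On simulated counts of 16333 genes, edgeR called 55 of 100 genes changed by 1.5 on the log2 scale and 88 of 100 changed by 3. It also called 11 unchanged genes. No other genes were changed in the simulation, and neither a length pattern nor an outlying library was put in. Its rates therefore do not carry over to the measured libraries, where 21.6% of the tested genes passed.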

Additional observations from a re-analysis of the deposited data

How the results depend on the processing

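Over all genes, 2121 passed in the higher and 1515 in the lower direction. These counts were 1137 and 2828 with library totals alone, 24 and 9 with the replicate block, 1692 and 763 with the length correction, and 59 and 22 with the replicate block and the length correction. With library totals alone the median of all genes moved to -0.34 on the log2 scale, and *Bdnf* (-0.02) and *Ntrk2* (-0.11) changed sign. The pathway lists held 8, 15, 22, 3, 3, 6 and 15 tested genes. Of all tested genes, 12.6% passed in the higher and 9.01% in the lower direction. Genes of the pathway lists passing in the higher direction numbered 4, against 8 with DESeq2, 0 with the replicate block, 0 with the block and length correction, and 9 with the length correction without YT-AKO 2. In the lower direction they numbered 7, against 12 with library totals alone, 0 with either block, 2 with the length correction and 2 with that correction without YT-AKO 2.

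*Ntrk3* was not called with the replicate block (-1.30, adjusted p = 0.0584 by edgeR), the length correction (-0.55), both (-0.57) or the length correction without YT-AKO 2 (-0.36), so 0 of the family were called lower in each of these. *Ntf3* was called with DESeq2 (1.02), making 1 called higher. Under the length correction, the block with it, and the correction without YT-AKO 2, *Negr1* turned to 0.35, 0.36 and 0.28 and *Sort1* to 0.06, 0.06 and 0.09, and *Bdnf* was -0.71 under the last. *Yap1* lost its call with the block (-0.98) and the block with length correction (-0.57), and *Wwtr1* with library totals (0.59), the block (0.89) and the block with length correction (1.02). The cause of these changes was not tested. Under limma-voom, upper-quartile normalization, no filter, at least 10 counts in every library, and robust estimation, each tested gene of the family kept its direction and its side of the threshold, except that *Bdnf* was not tested with 10 counts in every library.

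When single libraries were left out, the counts of all genes ran from 0 to 2925 higher and 0 to 2424 lower (0 in both without YT-FF 1, where 4665 had an unadjusted p under 0.05), those of the family from 0 to 1 in either direction, and those of the pathway lists from 0 to 10 and 0 to 8. Log2 fold changes ran from -0.86 to 1.05 for *Bdnf*, 0.88 to 1.27 for *Ntf3*, -0.18 to -0.05 for *Negr1*, -0.89 to -0.52 for *Ngfr*, -0.01 to 0.40 for *Ntrk2*, -1.65 to -0.92 for *Ntrk3*, -0.39 to -0.14 for *Sort1*, -1.08 to -0.90 for *Yap1* and 0.81 to 1.03 for *Wwtr1*. The difference in mean CPM of *Ntf5* ran from -0.0142 to 0.131.

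With the longest protein-coding transcript as length, an alternative added after the data were seen, mean TPM in YT-FF was 5.45 for *Ntf3*, 26.4 for *Negr1*, 84.4 for *Ntrk2*, 16.7 for *Ntrk3* and 192 for *Sort1*. The labels do not say whether the replicate numbers pair the samples. Deviations of same-numbered libraries from their group means correlated at 0.126, -0.118 and -0.0893, and not every library correlated best with its own number. Deviations from a mean of 3 libraries balance around 0 within each group, so these values cannot decide whether the numbers pair the samples. Depth limited *Bdnf* and *Ntf5*, with at most 23 and 5 counts in a library.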
